A study of Homo sapiens with 2 samples.

Results

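RBMS1, RBMS2 and RBMS3, the 3 genes of the RBMS family of RNA-binding proteins, were followed through 2 RNA-seq libraries of MDA-MB-231, a cell line of human triple-negative breast cancer. The members were taken by gene symbol in GENCODE release 29 and are 3 of 49678 genes listed in either library. One library came from cells labelled RBMS1 knockdown and the other from its control. The study made stable knockdown lines with lentivirus that carried an shRNA against RBMS1 in the plasmid pLKO.1, and the control line is labelled by that plasmid. The human shRNA sequence was not analysed here, so its target exon was not placed. Both lines grew in L15 medium with serum and without added carbon dioxide, and total RNA was taken with Trizol. Each group holds 1 library, so there was no spread between replicates and no test, and every comparison below describes these 2 libraries. The low and high bounds given with a value are those Cufflinks wrote for its uncertainty within a library, summed over the transcripts of a gene.

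The RBMS proteins carry a pair of RNA recognition motifs and bind A- and U-rich stretches of single-stranded RNA and DNA. RBMS1 was first described as a protein that binds single-stranded DNA upstream of MYC, and the family is known for binding 3′ untranslated regions and for effects on the stability of mRNAs. The question put to these data is which RBMS1 transcripts were lower in the knockdown library, and how the paralogs RBMS2 and RBMS3 stood there.

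The 3 genes are separate loci of similar coding sequence. On GRCh38, RBMS1 (ENSG00000153250) lies on the minus strand at chr2:160272151-160493794, RBMS2 (ENSG00000076067) on the plus strand at chr12:56521929-56596196 and RBMS3 (ENSG00000144642) on the plus strand at chr3:28574791-30010391. The annotation gives them 15, 9 and 20 transcripts. Coding sequences of RBMS1-201 (1218 bases), RBMS2-201 (1221 bases) and RBMS3-205 (1308 bases), stop codons left out, were 67.5% identical between RBMS1 and RBMS2, 68.9% between RBMS1 and RBMS3 and 66.2% between RBMS2 and RBMS3. The longest exact run shared by any of their transcripts was 20 bases for RBMS1 with RBMS2, 21 for RBMS1 with RBMS3 and 36 for RBMS2 with RBMS3.

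The first 30 coding bases of the coding isoforms that carried the signal are shown because they tell these RBMS1 isoforms apart. The first codon of the annotated coding region is in capitals. They are read from the GENCODE release 29 transcripts, 5′ to 3′ on the strand of the gene, and RBMS2 and RBMS3 are given for comparison.
RBMS1-201: ATGggcaaagtgtggaaacagcagatgtac
RBMS1-202: TTTttaaagtgtaaacagtctctggtccca
RBMS1-205: ATGgcccctcccagtcccagcaccaccagc
RBMS2-201: ATGctgctatccgtgacttccaggcccggg
RBMS3-205: ATGggcaaacgcctggatcagccacaaatg
RBMS1-201 starts its coding region in its first exon, at chr2:160493334-160493363, in bases that RBMS1-209, a form with no coding region, also holds. RBMS1-202 is annotated as coding from its very first base, with no start codon, and its first exon holds 15 bases, chr2:160367512-160367526. RBMS1-205 starts coding at chr2:160367338-160367367, inside the first exon that all these isoforms share, so that its 1110 coding bases (370 codons) lack the distinct beginning of RBMS1-201 (406 codons). The isoforms also differ by 9 bases inside the coding region, chr2:160286969-160286977, shown here in capitals with 10 bases on either side of the splice junction.
RBMS1-201: agaaggagagGTGAGACTTgctggaatga
RBMS1-205: agaaggagaggctggaatga
The 9 bases are kept by RBMS1-201, RBMS1-202, RBMS1-209 and RBMS1-214 and left out by RBMS1-205.

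RBMS1, the gene targeted by the shRNA, was 4.19 FPKM (3.49 to 5.89) in the knockdown and 24.1 FPKM (21.7 to 27.7) in the control library. FPKM counts the fragments of a transcript for each kilobase of it, scaled to the total of the library. The knockdown library held 17.4% of the control level, a log2 ratio of -2.27 with 1 FPKM added to both values, and the bounds of the libraries did not overlap. Set at their extremes, those bounds allow a log2 ratio from -2.67 to -1.72. RBMS1 was thus lower in the library labelled as its knockdown.

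RBMS2 was 11.2 FPKM (10.6 to 12.4) in the knockdown and 11.6 FPKM (10.9 to 12.9) in the control library, 97.1% of the control level with a log2 ratio of -0.039. RBMS3 was 4.20 FPKM (3.92 to 5.55) in the knockdown and 4.60 FPKM (4.29 to 6.06) in the control library, 91.3% of the control level with a log2 ratio of -0.11. For both paralogs the bounds overlapped, and their extremes allow a log2 ratio from -0.25 to 0.17 for RBMS2 and from -0.52 to 0.31 for RBMS3. Neither was 2-fold higher or lower. With 1 library a group this does not show that they were unchanged. The single RBMS3 form listed above 0 has a coverage of 48.0 in both files, equal within 0.001%, which was so for 1 of the 12545 annotated transcripts above 0 in both libraries with a mean of at least 1 FPKM. The RBMS3 ratio therefore rests on the scaling of the libraries, and 1 FPKM of this form was worth a coverage of 11.4 and 10.4. The cause was not tested.

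In the control library RBMS1 was the most abundant of the family per length, RBMS2 next and RBMS3 the lowest, with no overlap of their bounds. In the knockdown library RBMS2 was the highest, while RBMS1 and RBMS3 had overlapping bounds near 4 FPKM.

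**Figure D1:**
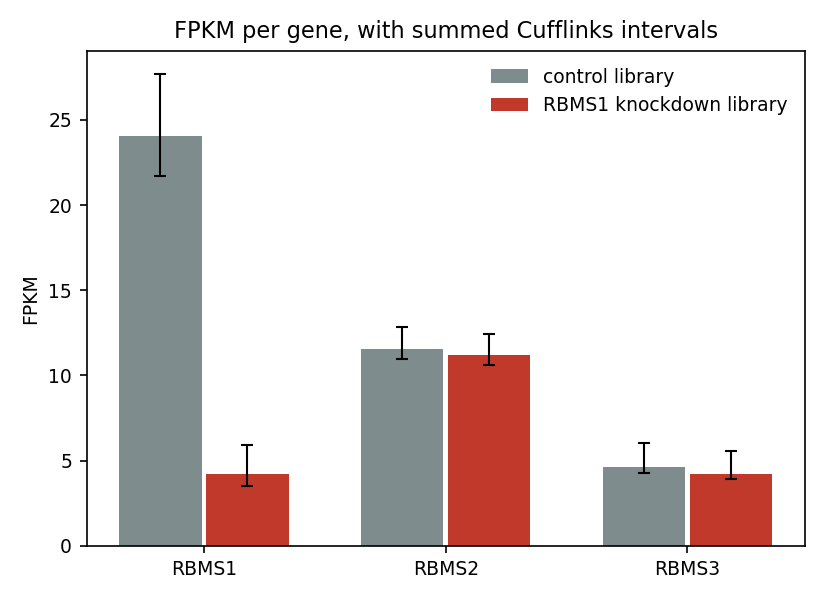
FPKM of RBMS1, RBMS2 and RBMS3 in the control (grey) and RBMS1 knockdown (red) library; bars are sums over the transcripts of the gene and whiskers the summed Cufflinks bounds, which cover uncertainty within a library only. RBMS1 is 24.1 against 4.19 FPKM, while the whiskers of RBMS2 and of RBMS3 overlap.

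The members were read against all genes whose mean FPKM was 1 or more. A log2 ratio of at most -1 was found for 353 of 11386 genes (3.1%) and for 1 of the 3 members, RBMS1. A log2 ratio of at least 1 was found for 358 genes (3.14%) and for no member. Bounds that did not overlap between the libraries were found for 25.4% of genes, so that this feature of RBMS1 is common. RBMS1 ranked 131 from the lowest log2 ratio, and 2.34% of genes had a ratio of at least its size in either direction. The rank and that share include genes listed at an exact 0 in 1 library, such as ACY1 (0 and 12.8 FPKM). An exact 0 can be a failed estimate, so the rank does not count genes that fell more than RBMS1. For RBMS3 the share of genes with a ratio of at least its size was 70.3%, and for RBMS2 88.9%. The median log2 ratio of all genes was 0.017.

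**Figure D2:**
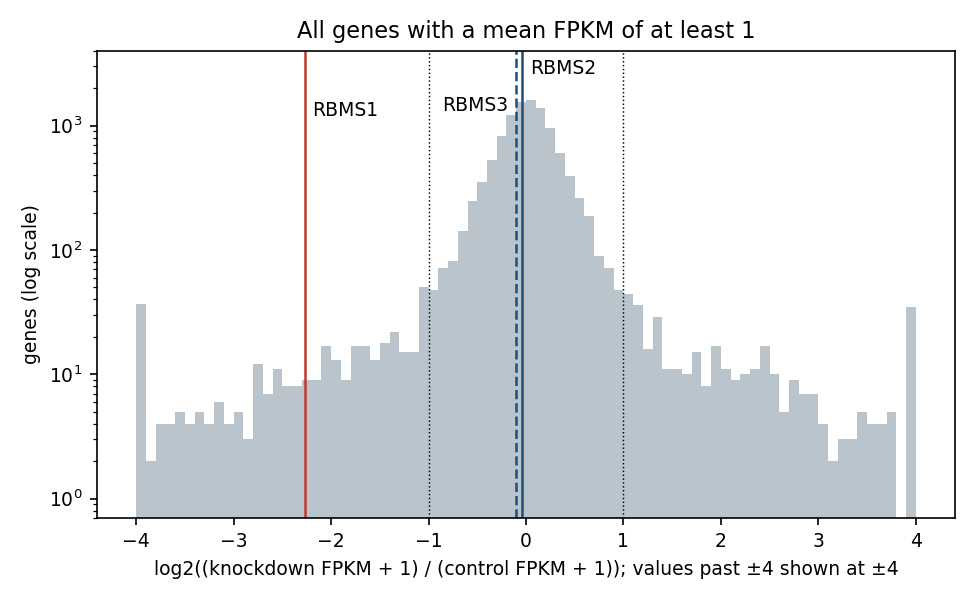
Log2 ratio of knockdown over control FPKM, with 1 FPKM added, for the 11386 genes whose mean FPKM was 1 or more; the y axis counts genes on a log scale and dotted lines mark -1 and 1. RBMS1 lies at -2.27, in the lower tail, and RBMS2 (-0.039) and RBMS3 (-0.11) lie near the centre.

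The 3 protein-coding genes whose log2 ratio was nearest to that of RBMS1, among those above 0 in both libraries with a mean of at least 5 FPKM, were IL24, CSF2 and SDC4. IL24, a cytokine, was 1.43 FPKM in the knockdown and 10.6 FPKM in the control library, a log2 ratio of -2.25. CSF2, which encodes the growth factor GM-CSF, was 6.24 and 36.1 FPKM, a log2 ratio of -2.36. SDC4, a cell surface heparan sulfate proteoglycan, was 22.0 and 102 FPKM, a log2 ratio of -2.16. The likeness is over 2 libraries only.

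Of the 15 annotated RBMS1 transcripts, 4 were above 0 in the control library and 3 in the knockdown library. RBMS1-201 (ENST00000348849), the coding form that starts at the outermost first exon, was 1.21 FPKM (1.01 to 1.42) in the knockdown and 2.99 FPKM (2.65 to 3.34) in the control library. Its knockdown level was 40.6% of the control level, a log2 ratio of -0.85, which is short of 2-fold on this scale. RBMS1-202 (ENST00000392753), the form with the 15-base first exon, was 1.30 FPKM (1.07 to 1.54) and 9.88 FPKM (9.16 to 10.6), 13.2% of the control level with a log2 ratio of -2.24. It was the most abundant RBMS1 transcript of the control library, with 41.1% of the gene's FPKM.

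The other forms were each listed in 1 library. RBMS1-205 (ENST00000409972), the coding form that lacks the 9 bases, was 6.59 FPKM (5.77 to 7.41) in the control library and listed at 0 in the knockdown library, with an upper bound of 0.029 FPKM. RBMS1-209 (ENST00000474820), annotated as a processed transcript with no coding region, was 4.59 FPKM (4.13 to 5.05) in the control library and listed at 0 in the knockdown library, with an upper bound of 0.012 FPKM. RBMS1-213 (ENST00000490637), a retained-intron transcript, went the other way. It was 1.24 FPKM (1.04 to 1.43) in the knockdown library and listed at 0 in the control library, with an upper bound of 0.013 FPKM. An exact 0 in Cufflinks output can be a failed estimate or reads given to another transcript, so no fold is given for these 3.

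**Figure D3:**
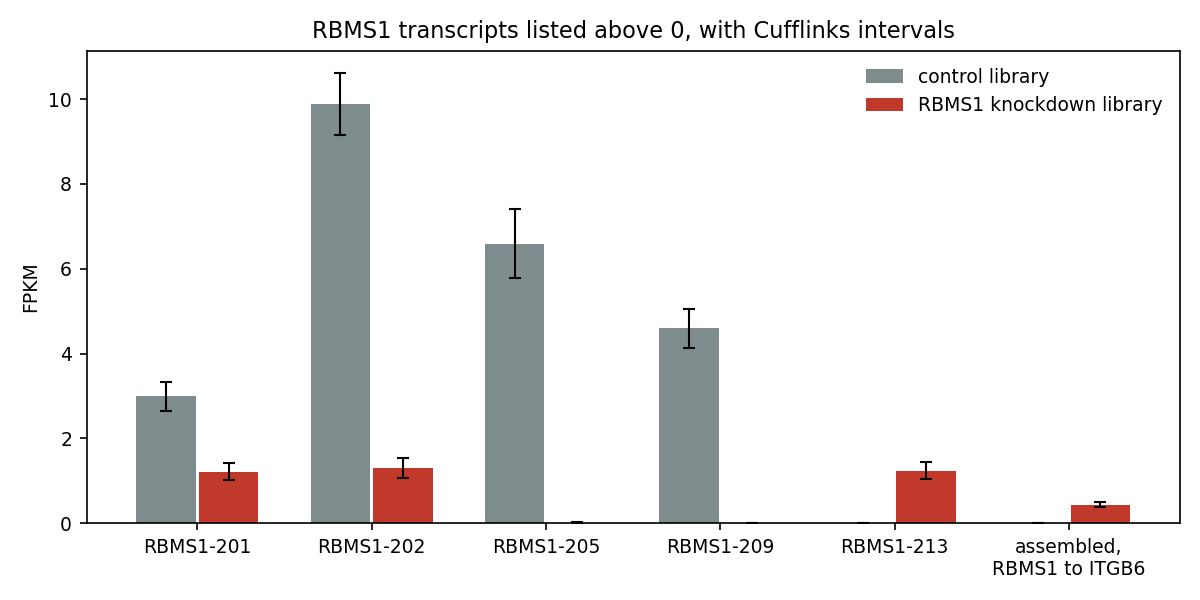
FPKM of each RBMS1 transcript above 0 in at least one library (control grey, knockdown red), with the Cufflinks bounds as whiskers. RBMS1-201 and RBMS1-202 are above 0 in both libraries, RBMS1-205 and RBMS1-209 in the control library only, and RBMS1-213 and the assembled transcript from RBMS1 into ITGB6 in the knockdown library only.

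The background for single transcripts was wider than for genes. Of 14421 annotated transcripts with a mean FPKM of at least 1, 8.31% had a log2 ratio of at most -1 and 7.94% of at least 1. Among the 4 RBMS1 transcripts above that mean, 3 were at most -1 (RBMS1-202, RBMS1-205 and RBMS1-209) and none was at least 1. Of the 3, only RBMS1-202 was above 0 in both libraries. RBMS1-205 and RBMS1-209 passed the filter through the control library alone, and with an exact 0 their ratio was bound to lie below -1. Their place in this count is therefore no evidence of a fold. The 8.31% also holds transcripts listed at 0 in the knockdown library. RBMS1-213 was below that mean. Transcripts listed at 0 in the knockdown library only were 6.66% of the 14421, and 2 of the 4 RBMS1 transcripts were among them. Transcripts listed at 0 in the control library only were 6.35%, and no RBMS1 transcript above that mean was among them.

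How far the isoforms could be told apart differed between them. RBMS1-201 has 312 bases that no other listed transcript of the gene holds, and RBMS1-205 has 426, its first exon. RBMS1-209 has 110 bases and 4 introns of its own. RBMS1-202 has only its 15 bases and 1 intron, and RBMS1-213 has neither a base nor an intron of its own. The division of FPKM between RBMS1-202 and the rest therefore rests on few bases.

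The RBMS1 forms were grouped by their annotated start. Those with inner first exons were RBMS1-202, RBMS1-205 and an assembled transcript described below. They summed to 1.74 FPKM in the knockdown and 16.5 FPKM in the control library, 10.6% of the control level. RBMS1-202 gave 1.30 and 9.88 FPKM of these. It is annotated without a start codon, so where its transcription begins was not placed and the groups do not compare known starts. The forms that start at the outermost first exon (RBMS1-201 and RBMS1-209) summed to 1.21 and 7.58 FPKM, 16.0%. That share rests on the exact 0 of RBMS1-209 in the knockdown library, since RBMS1-201 by itself was at 40.6%. RBMS1-205 likewise adds an exact 0 to the inner group, where RBMS1-202 by itself was at 13.2%. Both groups were lower in the knockdown library. The coding transcripts together were 2.52 and 19.5 FPKM, 12.9% of the control level, and made up 60.1% of the gene's FPKM in the knockdown library against 80.9% in the control library.

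Grouped by their 3′ end, the forms that run to the distal end of the gene were 2.52 and 17.5 FPKM, 14.4% of the control level. The forms that end at the proximal site were 1.24 and 6.59 FPKM, 18.8%, but this pair compares RBMS1-213 with RBMS1-205, which share no start. Of the 4 RBMS1 transcripts above 0 in the control library, RBMS1-201 and RBMS1-202 were lower in the knockdown library with a value above 0, while for RBMS1-205 and RBMS1-209 the difference rests on an exact 0.

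The level of each exon segment was also taken as the summed coverage of the transcripts that hold it, which adds up the isoforms that share it. Cufflinks gives 1 mean coverage per transcript, so these levels are not reads counted over the segment and still depend on how reads were divided between isoforms. Levels are in FPKM units, coverage divided by the coverage that 1 FPKM was worth in the library. The coding exons from chr2:160367216-160367391 to chr2:160284995-160285044, the 9-base block apart, are shared by every coding isoform above 0 in either library and were 2.94 in the knockdown and 23.4 in the control library, 12.6% of the control level. From chr2:160284775-160284867 to the shared beginning of the last exon, chr2:160274520-160274764, the levels were 4.18 and 23.4, 17.9%. The difference between those stretches is RBMS1-213, which begins between them. The long distal part of the last exon, chr2:160272152-160274517, was 2.94 and 17.0, 17.3%.

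The first exons and alternative bases had these levels. The outer part of the outermost first exon, chr2:160493380-160493794, was 1.21 in the knockdown and 2.91 in the control library, 41.6%. The inner part of that exon, chr2:160493289-160493379, was 1.21 and 7.38, 16.4%, since RBMS1-209 begins there in the control library. The first exon of RBMS1-205, chr2:160407464-160407889, was 6.41 in the control library and 0 in the knockdown library. The 9-base block was 2.94 and 17.0, and the junction that leaves it out was 0 and 6.41, so in the library files the form without the 9 bases was above 0 in the control library alone, by an exact 0 in the other.

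**Figure D4:**
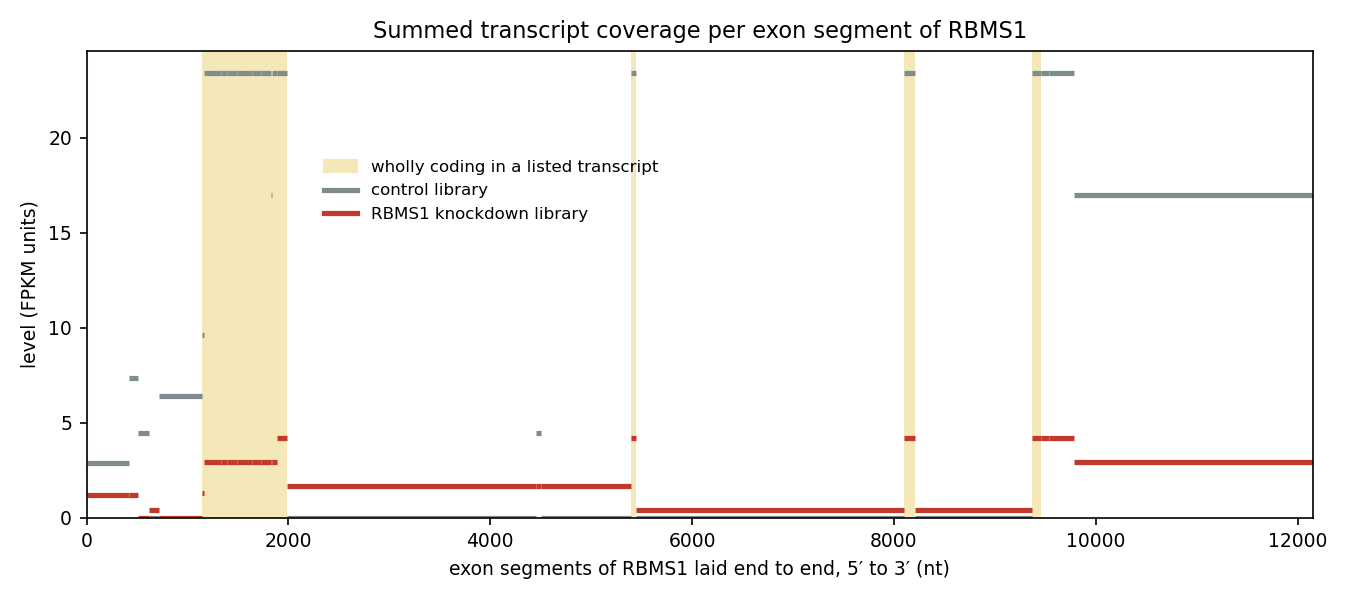
Summed transcript coverage of each RBMS1 exon segment of at least 9 bases, in FPKM units, with the segments laid end to end from 5′ to 3′ (control grey, knockdown red, segments that are coding throughout shaded). The shared coding segments stand at 23.4 in the control and 2.94 to 4.18 in the knockdown library, and the long segments between them, which are introns in the other isoforms, are above 0 only in the knockdown library.

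Retained intron sequence was listed in the knockdown library only. The stretches chr2:160282305-160284774 (2470 bases) and chr2:160281365-160282256 (892 bases) were at 1.67 in the knockdown and at 0 in the control library. RBMS1-213 holds both stretches, has neither a base nor an intron of its own, and is an exact 0 in the control library. The control level of 0 therefore does not show that the control library had no reads there. Both stretches also lie inside an assembled transcript that Cufflinks built from the reads. That assembled transcript spans chr2:160099666-160408609 on the minus strand, with 26 exons and 15944 bases, at 0.436 FPKM (0.375 to 0.496). Of its 25 introns, 10 are RBMS1 introns and 12 are introns of ITGB6, the integrin beta 6 gene that follows RBMS1 on the same strand, and its longest exon of 7566 bases runs across RBMS1 introns. It makes up 10.4% of the RBMS1 FPKM of the knockdown library, and without it the log2 ratio of RBMS1 was -2.40.

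The primers with which RBMS1 was measured by qPCR in this work are shown here because they mark a stretch on which the level by RNA-seq can be read.
forward primer: gtgcaaagtccttcgtggat
reverse primer: tccttgcatagctgacgttg
The forward primer lies at chr2:160281345-160281364, in a coding exon of 51 bases, and the reverse primer at chr2:160277354-160277373, in a coding exon of 81 bases, giving a product of 192 bases. Both match 8 of the 15 annotated RBMS1 transcripts, among them all 5 listed above 0 in either library. The exons they lie in were at 4.18 in the knockdown and 23.4 in the control library, 17.9% of the control level. That level includes the assembled transcript that runs into ITGB6, which retains both introns between the primers. The 2 junctions inside the product were each at 3.74 and 23.4, 16.0%. RBMS1-213 is included in both levels, so the primers would not separate it from the spliced coding forms.

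The primers do not match the paralogs. The closest stretch in RBMS2 has 7 mismatches to the forward and 4 to the reverse primer, and in RBMS3 4 and 7. In the processed pseudogene RBMS1P1 the reverse primer matches in full and the forward primer has 2 mismatches. RBMS1P1 was listed at 0 in the knockdown library and at 0.136 FPKM (0.014 to 0.258) in the control library.

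RBMS2 gave a single form in both libraries. All of its FPKM stood in RBMS2-201 (ENST00000262031), the principal coding transcript with a last exon of 7057 bases, at 11.2 FPKM (10.6 to 11.8) in the knockdown and 11.6 FPKM (10.9 to 12.2) in the control library. The other 7 RBMS2 transcripts listed were at 0 in both libraries. No assembled transcript was placed in RBMS2 introns in either library.

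RBMS3 also gave a single form, RBMS3-205 (ENST00000434693), a coding transcript of 436 codons with a last exon of 6536 bases. It was 4.20 FPKM (3.92 to 4.48) in the knockdown and 4.60 FPKM (4.29 to 4.90) in the control library. The other 15 RBMS3 transcripts listed were at 0 in both, among them RBMS3-204, RBMS3-206 and RBMS3-208, which start far upstream. RBMS3 thus showed in these cells the form that starts at chr3:29280982.

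Beside that form, each library held an assembled single-exon transcript over the first exon of RBMS3 that ran on into intron 1 and shared no intron with the gene, so that it was not in the gene's sum. It was 3.62 FPKM (3.29 to 3.95) over 4508 bases in the knockdown library, 86.2% of the FPKM of RBMS3-205. In the control library it was 4.54 FPKM (4.07 to 5.005) over 2930 bases, 98.7%. Added to the gene, it would make RBMS3 7.82 FPKM in the knockdown and 9.13 FPKM in the control library, a log2 ratio of -0.20.

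Introns of RBMS1 and RBMS3 held many assembled single-exon transcripts on the strand of the gene. In RBMS1 there were 77 over 88106 bases in the knockdown library and 41 over 32281 bases in the control library, all on the minus strand. A covered length at least 2-fold longer in the knockdown library was found in 13.7% of the 1704 protein-coding genes with at least 5000 bases of such transcripts in either library, and RBMS1 was one of them. At least 2-fold longer in the control library was found in 21.9%. In RBMS3 there were 80 over 61748 bases and 77 over 47934 bases.

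Cufflinks leaves out intronic alignments that are low beside the spliced level around them, so an intron with no listed transcript is not an intron without reads, and the covered length is not an amount of RNA. The lowest level listed inside RBMS1 introns was 0.424 in the knockdown and 1.06 in the control library. Upstream of the first shared exon, 51 transcripts with a median level of 0.754 were listed in the knockdown library and 41 with a median of 1.36 in the control library. Downstream of it, over 95.1 kb, 26 with a median level of 1.15 were listed in the knockdown library and none in the control library.

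The level could be compared where both libraries had such a transcript. Over the 28117 bases of RBMS1 introns covered in both, all upstream of the first shared exon, the mean level was 0.793 in the knockdown and 1.52 in the control library, 52.1% of the control level. Over the 1233 bases coding in a listed RBMS1 transcript the level was 3.23 and 22.2, 14.5%. That share of the mean intronic control level would lie below the lowest intronic level listed in the knockdown library, so the intronic and coding shares stand side by side without a comparison. Among the 39 genes at least 2-fold lower with at least 1000 intronic bases covered in both, the median of the same measure was 78.5% of the control level, from 33.1% to 226%. In RBMS3 introns, over 24802 bases covered in both, it was 86.3% (2.12 and 2.46).

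**Figure D5:**
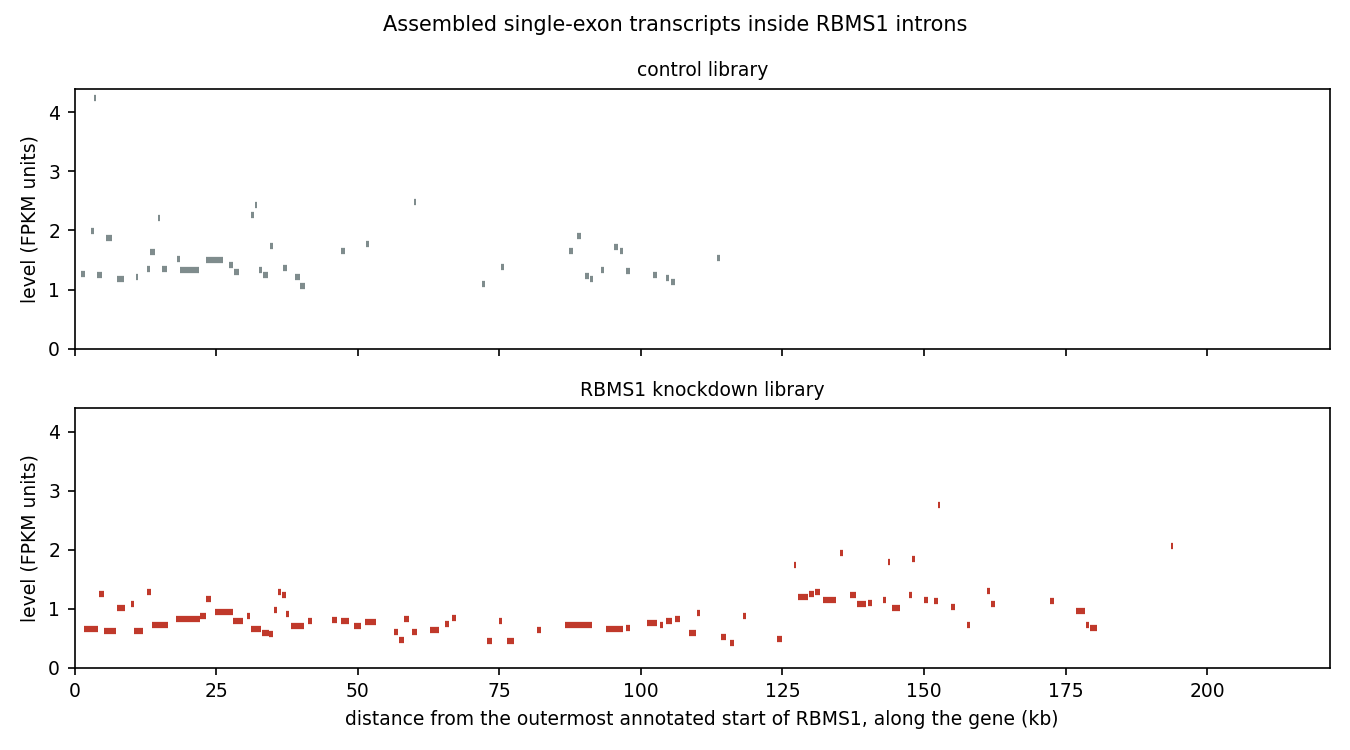
Assembled single-exon transcripts inside RBMS1 introns, as horizontal lines at their level in FPKM units against the distance from the outermost start of the gene in kb (control above, knockdown below). The control library has 41, none beyond the first shared exon at about 126 kb, and the knockdown library has 77, of which 26 lie beyond it.

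The FPKM columns of the authors' comparison table, a selected list of 7236 transcripts, held 4 RBMS1 transcripts, 1 of RBMS3 and none of RBMS2. Values in that table stood higher than in the library files, by a median factor of 1.74 in the knockdown and 1.78 in the control library. RBMS1-201 was 1.96 FPKM in the knockdown and 5.51 FPKM in the control column. RBMS1-202 was 2.52 and 22.5 FPKM. RBMS1-205 was 2.49 and 9.62 FPKM, above 0 in the knockdown column where the library file lists it at 0. RBMS1-204, a coding form listed at 0 in both library files, was 0 and 3.84 FPKM.

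Divided by those factors, the 4 RBMS1 transcripts of the table summed to 4.01 FPKM in the knockdown and 23.4 FPKM in the control column, near the sums of 4.19 and 24.1 FPKM from the library files. The library sums also hold RBMS1 forms that the selected table does not list, so a part is set against a whole. The near values therefore do not show that the sources gave a like total for RBMS1. The sources differed in which RBMS1 isoforms were above 0. The RBMS3 transcript of the table was RBMS3-210, at 0.209 and 1.25 FPKM, which both library files list at 0. RBMS3-205, the only form above 0 in the library files, is not in the table.

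Genes around the members were checked on both sides. ITGB6, the nearest protein-coding gene to RBMS1, was 0.436 FPKM (0.375 to 1.03) in the knockdown library, all of it the assembled transcript that runs on from RBMS1, and 0.024 FPKM in the control library. No protein-coding gene lies within 500 kb on the other side of RBMS1. MIR4785, a miRNA gene inside RBMS1, was listed at 0 in both. RBMS2 overlaps the end of BAZ2A, a chromatin remodelling subunit on the other strand, by 601 bases. BAZ2A was 10.8 FPKM (10.0 to 13.3) in the knockdown and 9.99 FPKM (9.27 to 12.6) in the control library. On its other side the nearest gene, GLS2, a glutaminase, was listed at 0 in both.

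Inside RBMS3 lie antisense genes and pseudogenes. RBMS3-AS3, which overlaps its start on the other strand, was listed at 0 in the knockdown library and at 1.15 FPKM (0.593 to 1.71) in the control library. RBMS3-AS2 was 0.242 and 0.249 FPKM, and RBMS3-AS1 was 0.0751 FPKM in the knockdown library and listed at 0 in the control library. The ribosomal protein pseudogene RPS12P5 was 0.755 and 1.39 FPKM, with overlapping bounds. AC098650.1, a gene model that overlaps RBMS3 on the same strand, was 0.230 FPKM and listed at 0, and MESTP4, MTND4LP9 and, inside RBMS2, RNU6-343P were listed at 0 in both. The nearest protein-coding gene outside, ZCWPW2, was 0.827 FPKM (0.353 to 1.61) and 0.547 FPKM (0.207 to 1.19).

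Of 61 genes beside or inside the members, 26 had a mean of at least 1 FPKM, and 2 of these were at least 2-fold higher and 1 at least 2-fold lower (background 3.14% and 3.1%). Named after their values were seen, they were ZC3H10, 6.46 FPKM and listed at 0, CMC1, 32.3 FPKM and listed at 0, and SMARCC2, listed at 0 and 9.83 FPKM. All 3 rest on an exact 0 in 1 library.

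Proteins with RNA recognition motifs that bind U-rich or AU-rich RNA, as the RBMS proteins do, were followed as a list of 24 genes, of which 17 had a mean of at least 1 FPKM. In the knockdown library 9 of the 17 were higher and 8 lower than in the control library, with a median log2 ratio of 0.0022 against 0.017 over all genes. Of all genes, 52.6% were higher and 47.4% lower. Beyond 2-fold there was 1 lower gene of the 17, RBM38, and no higher one, beside 3.1% and 3.14% of all genes. RBM38, which binds and stabilises mRNAs such as that of CDKN1A, was 2.51 FPKM (2.12 to 3.21) in the knockdown and 6.32 FPKM (5.37 to 7.59) in the control library, a log2 ratio of -1.06. The highest was HNRNPD, or AUF1, which binds AU-rich elements, at 209 FPKM (197 to 222) and 161 FPKM (151 to 172), a log2 ratio of 0.37. Bounds did not overlap for 5 of the 17, beside 25.4% of all genes.

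ELAVL1, which encodes the widely expressed AU-rich element binding protein HuR, was listed at 0 in both libraries. A transcript with an Ensembl identifier that release 29 does not hold covers that locus at 39.5 FPKM in the knockdown and 36.5 FPKM in the control library, so its 0 does not stand for absence. Transcripts with such identifiers numbered 2245 and 2244 in the libraries and held 16.0% and 11.6% of the summed FPKM. None of them overlapped RBMS1, RBMS2 or RBMS3.

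Messenger RNAs listed as targets of RBMS proteins were 7, of which 6 had a mean of at least 1 FPKM. The list was made for the family as a whole, so it is not a list of RBMS1 targets. In the knockdown library 5 were lower and 1 higher, with a median log2 ratio of -0.49, beside 47.4% of all genes lower and a median of 0.017. B4GALT1 was picked by the study on these same libraries, so the count is not independent evidence of a direction. B4GALT1, a galactosyltransferase of the Golgi, was the lowest, at 9.70 FPKM (8.56 to 10.9) in the knockdown and 21.4 FPKM (20.3 to 22.6) in the control library, a log2 ratio of -1.07. AMIGO2, a cell adhesion protein, was the highest, at 10.1 FPKM (8.88 to 11.3) and 5.98 FPKM (5.39 to 6.63), a log2 ratio of 0.67. MYC, whose upstream region gave RBMS1 its early name, was 35.5 FPKM (32.3 to 38.9) and 42.2 FPKM (39.1 to 45.6), a log2 ratio of -0.24. The bounds did not overlap for 5 of the 6, beside 25.4% of all genes, and B4GALT1 alone of the 6 was 2-fold lower on this scale, beside 3.1%. That count depends on the 1 FPKM added. SLC7A11, the light chain of the cystine and glutamate exchanger, named here after its value was seen, was 6.85 FPKM (6.38 to 7.41) in the knockdown and 14.3 FPKM (13.4 to 15.4) in the control library, a log2 ratio of -0.96, and of -1.05 with 0.1 FPKM added.

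Depth in reads is unknown, but 1 FPKM was worth a median coverage of 12.4 in the knockdown and 11.4 in the control library. The mesenchymal and epithelial markers fixed for MDA-MB-231 (VIM, CD44, EGFR, CAV1 and KRT18) were all at 26.1 FPKM or more in both libraries. Their bounds did not overlap between the libraries for any of the 5, beside 25.4% of all genes, and 4 of the 5 were lower in the knockdown library, CAV1 being higher. ESR1, PGR and CDH1, which this line lacks, summed to 0.148 and 0.128 FPKM, and markers of leukocytes, endothelium and liver (PTPRC, PECAM1 and ALB) to 0.278 and 0.0873 FPKM. Of single-exon assembled transcripts inside genes of 1 strand, 95.7% in the knockdown and 96.0% in the control library lay on the strand of the gene, and at most 63 transcripts a library had no strand.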

How the data were processed

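RNA was sequenced from 1 RBMS1 knockdown and 1 control library of MDA-MB-231 cells; groups came from the sample descriptions. The authors deposited, per library, transcripts with FPKM values, bounds and coverage from Cufflinks, and a comparison table with FPKM, log2 fold change, p-value and q-value columns, of which only the FPKM columns were used here. The submitters' processing notes name Bowtie2 2.0.6, TopHat2 2.0.9, Cufflinks 2.1.1 and Cuffdiff 2.1.1. Read length and strandedness are not given in the sources used here. In the deposited library files 98.1% of matched transcripts start where GENCODE release 29 (GRCh38) places them.

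Transcripts were joined to genes by Ensembl identifier. An assembled transcript counted for every gene with which it shared at least 1 intron on the same strand. FPKM and bounds were summed per gene. Ratios are log2 with 1 FPKM added to both values, which understates changes of low genes. Genes whose mean FPKM was 1 or more entered counts, and 2-fold means 1 or more on the log2 scale in either direction. Because FPKM divides by length and by library total, and Cufflinks assigns reads shared by isoforms, single isoforms are less certain than gene sums. Near-identical reads of RBMS1P1 and RBMS2P1 could be split with their parent genes. Sequence comparisons used global alignment.

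Named were the members, their transcripts of at least 0.5 FPKM in either library, overlapping and nearest genes, the extremes of each list, the 3 genes nearest in ratio to RBMS1, MYC and B4GALT1. The members, lists and tests were chosen with earlier results of these data known. Gene sums and segment levels were tested on simulated data. Alternatives were other pseudocounts, filters, scalings and transcript sets. Python 3.11.15 and numpy 2.4.6 were used.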

Additional observations from a re-analysis of the deposited data

Results flagged for a closer look

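Between ITGB6 and RBMS1 the knockdown library lists 17 assembled single-exon transcripts on the plus strand, opposite to both genes, and the control library lists none, which is why they stand here as signal outside the comparisons. They lie at chr2:160206315-160262841, cover 40160 bases and range from 0.244 to 0.498 FPKM. On the minus strand each library lists 1 assembled transcript in that interval, at 0.447 FPKM in the knockdown and 0.310 FPKM in the control library. The plus-strand transcripts accompany the assembled transcript from RBMS1 into ITGB6, which is also listed in the knockdown library only, at 0.436 FPKM. Their part in the RBMS1 result was not tested, and with 1 library a group a feature of the line and the knockdown cannot be told apart.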

How the results depend on the processing

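The log2 ratio of RBMS1 was negative and beyond 2-fold under all 11 alternatives, from -2.54 (coding transcripts only) to -1.29. It was outside the range of its bounds with a pseudocount of 5 FPKM (-1.66) and as coverage over the union of exon segments (-1.29), a union that holds the ITGB6 exons and retained introns of the assembled transcript. Without assembled transcripts, an alternative chosen after seeing the data, that coverage gave -1.89. Also added later were giving assembled transcripts to the gene with most shared introns (-2.40) and adding those that overlap an exon, which left RBMS1 at -2.27. RBMS2 ranged from -0.068 to -0.030 and RBMS3 from -0.20 to -0.061, within their bounds throughout. Genes at least 2-fold lower numbered 353, and 156 with a pseudocount of 5 FPKM and 150 with a mean of at least 5 FPKM. Those higher numbered 358, and 145 and 153. Transcripts at least 2-fold lower numbered 1198, and 476 and 298 under these settings, and those higher 1145, and 466 and 323, and 1722 with no filter. The median of the U-rich and AU-rich binding list was -0.10 with annotated transcripts only. The cause was not tested. Another 47 values stayed within their limits. No paired analysis was possible because each group has 1 library, and for that reason no replicate could be left out. Depth in reads is unknown, and values below about 0.5 FPKM rest on little coverage.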

Other observations

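The processed pseudogene RBMS2P1, whose longest exact run shared with RBMS2 is 308 bases, was 0.0699 FPKM (0 to 0.151) in the knockdown and 0.304 FPKM (0.128 to 0.480) in the control library. RBMS1P1 shares a run of 173 bases with RBMS1. The intronic transcripts of RBMS3 were placed differently in the libraries. In intron 1 of RBMS3-205, 152.989 kb long, the knockdown library lists 57 over 50626 bases and the control library 37 over 23001 bases. In its later introns the knockdown library lists 23 over 11122 bases and the control library 40 over 24933 bases. Upstream of its start, over 706 kb of the annotated gene, neither library lists one.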
